A study of Mus musculus with 8 samples.

Results

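The transcripts of 10 enzymes of glycolysis were followed across 8 arrays of mouse follicular B cells, a resting B cell population of spleen and lymph node. The enzymes were Hk1, Hk2, Gpi1, Pfkl, Aldoa, Aldoc, Tpi1, Pgk1, Eno1 and Ldha, and each probe set whose gene symbol was one of these names was taken. A probe set is a group of short probes on the array that report 1 transcript. Of the 10 genes, 8 had a probe set, among 8251 genes with at least 1 probe set of their own, and Gpi1 and Eno1 had none under these symbols. They gave 10 probe sets of 12488 on the array, of which 9 were bright enough to be tested among 7453. The receptor of all cells binds hen egg lysozyme (HEL), and was either IgM or IgMG, a chimera that is IgM except for its spacer outside the cell, its membrane-spanning part and its cytoplasmic part, which come from IgG1. Cells of each receptor were analysed without HEL or after stimulation with HEL, which made 4 groups of 2 arrays. Each array pooled cells of 2 to 8 mice from 1 to 3 sorts. The IgM arrays held 2 or 4 mice and the IgMG arrays 5 to 8, so receptor and number of pooled mice cannot be told apart. The sources used here do not give strain, age, the promoter behind the receptors, the HEL dose or the time with HEL. Whether any arrays shared mice is not stated either, so the p-values measure only the spread between these arrays, which may be technical.

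Glycolysis splits glucose in a chain of enzymatic steps and yields ATP and pyruvate. A hexokinase traps glucose in the cell as glucose 6-phosphate, an isomerase and phosphofructokinase prepare it, and aldolase and triose phosphate isomerase split it into interchangeable triose phosphates. Phosphoglycerate kinase, the mutase and enolase then pass the trioses towards pyruvate, and lactate dehydrogenase A turns pyruvate into lactate and restores NAD+. Resting B cells use little glucose, and activated lymphocytes take up more of it. MYC and HIF-1 are transcription factors known to act on many genes of the pathway, and both bind DNA letters that hold the core ACGTG.

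The promoters of 4 members are shown because the genes include both that rose with HEL (Ldha and Hk2), one below its unstimulated arrays in each receptor (Tpi1) and one with small changes (Pgk1). The sequences are the 250 bases upstream of the RefSeq transcription start in build GRCm38.p6, 5′ to 3′ on the gene's strand, with ACGTG or its reverse complement CACGT in capitals. The letters CACGTG hold both and appear as 1 run of capitals. Where a gene had several starts the most upstream one is printed. The windows lie at chr7:46845554-46845803 (plus strand) for Ldha, chr6:82774455-82774704 (minus strand) for Hk2, chrX:106186850-106187099 (plus strand) for Pgk1 and chr6:124814159-124814408 (minus strand) for Tpi1.
Ldha: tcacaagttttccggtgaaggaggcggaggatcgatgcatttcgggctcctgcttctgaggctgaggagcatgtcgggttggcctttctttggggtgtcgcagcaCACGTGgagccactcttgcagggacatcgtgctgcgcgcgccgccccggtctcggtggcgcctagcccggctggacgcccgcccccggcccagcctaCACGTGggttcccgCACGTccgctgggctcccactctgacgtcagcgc
Hk2: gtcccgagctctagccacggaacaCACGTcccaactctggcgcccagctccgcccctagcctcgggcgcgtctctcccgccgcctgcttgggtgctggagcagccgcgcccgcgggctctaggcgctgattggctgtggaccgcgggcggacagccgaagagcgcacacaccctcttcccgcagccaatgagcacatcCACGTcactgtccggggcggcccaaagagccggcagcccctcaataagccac
Pgk1: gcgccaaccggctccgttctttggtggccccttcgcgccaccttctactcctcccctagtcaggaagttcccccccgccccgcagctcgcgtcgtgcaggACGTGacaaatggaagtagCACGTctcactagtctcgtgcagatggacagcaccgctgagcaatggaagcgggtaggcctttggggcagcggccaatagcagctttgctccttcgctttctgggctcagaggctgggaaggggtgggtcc
Tpi1: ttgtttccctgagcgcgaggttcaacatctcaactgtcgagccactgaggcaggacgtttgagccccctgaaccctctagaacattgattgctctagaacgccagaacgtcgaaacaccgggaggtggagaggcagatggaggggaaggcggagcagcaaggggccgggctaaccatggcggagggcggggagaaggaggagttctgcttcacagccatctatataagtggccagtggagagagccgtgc
The Ldha window held CACGTG in 2 places, and 3 separate runs of capitals in all. The windows of Hk2 and Pgk1 each held 2 runs without CACGTG, and that of Tpi1 held 0. RefSeq entries were found for 10 of the 10 members, in 17 windows. ACGTG on either strand was present in 5 of the 17 and in 16.6% of 32851 windows of the same length over all genes. Of the 5, 2 are overlapping windows of Aldoa that hold the same single match. CACGTG was present in 1 of the 17 and in 6.02% of all windows. The members with ACGTG in any window were Hk2, Aldoa, Pgk1 and Ldha. These matches describe letters in a window, and no binding was measured.

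The values are array signals on a linear scale, whose size compares samples within a probe set but not 1 probe set with another. Median signal per array lay between 40.7 and 47.8. Of 10 B cell marker genes 9 had a probe set, with a summed signal of 32712 to 41561, and 9 T cell markers summed to 68.3 to 212. The B cell sum hides changes of single markers with HEL. Mean Cd79b went from 6646 to 3318 in IgM and from 6392 to 4116 in IgMG cells, and Pax5 from 1141 to 556 and from 1133 to 668. Blk went up, from 2903 to 4698 and from 2719 to 4378. Cd22 went from 1284 to 643 in IgM cells without overlap of the arrays. In IgMG cells Cd22 went from 1129 to 1239, with overlap. No marker looked up was at 0 on all arrays. The second unstimulated IgMG array stood apart in its markers of other cells: 17 myeloid genes summed to 22648 there against 2163 to 8507 on the others, and 8 NK cell genes to 3731 against 375 to 1045. Some myeloid genes, among them Csf1r, Cd14, C1qa, C1qb, C1qc and Mrc1, were instead highest on the first stimulated IgMG array. The second stimulated IgM array stood apart in the control probe sets for Gapdh, where the ratio of the 5′ to the 3′ signal was 0.755, against 0.140 to 0.395 on the others. This ratio is a sign of RNA length. Erythroid markers, 8 genes, summed to 13380 to 21593. In pooled cells, fewer cells of a type and less RNA per cell cannot be told apart.

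HEL raised Ldha and Hk2, the last and the first enzyme of the chain, in IgM cells, and the other members did not pass the test. The estimates of the 9 probe sets did not move as a block, though no change of Pfkl or Tpi1 passed the test. Pfkl went in opposite directions in the receptors without overlap, as did 5.02% of all tested. Tpi1 was lower with HEL in both. Tests used limma on log2(signal + 16) across all 7453 probe sets, and a change was called at a Benjamini-Hochberg adjusted p under 0.05. In IgM cells 2 of 9 probe sets were called, against 14.0% of all tested; both were higher, against 6.70% of all higher and 7.27% lower. In IgMG cells 0 of 9 were called, against 5.39% of all (3.10% higher and 2.29% lower). At an unadjusted p under 0.05 limma counted 5 of 9 there, and 1662 of 7453. Of these members Hk2 and Ldha were higher and Pfkl, Aldoc and Tpi1 lower. The same count in IgM cells was 2 of 9, Hk2 and Ldha, and 2135 of 7453. For the mean of both responses 2 of 9 were called, against 20.2% of all; both were higher, against 9.18% of all higher and 11.0% lower. The median log2 change of the members was 0.19 in IgM cells and 0.12 in IgMG cells, beside -0.02 and -0.05 over all tested probe sets.

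**Figure D1:**
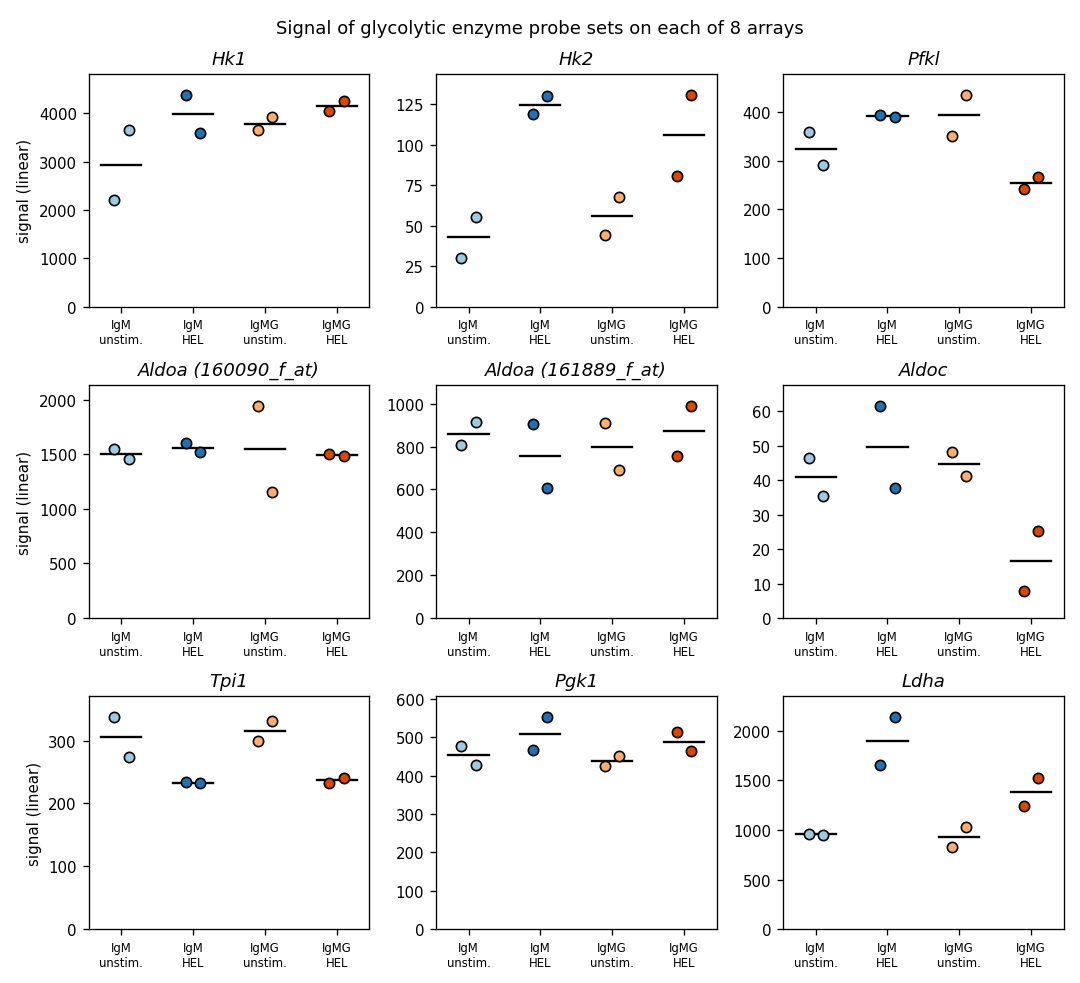
Array signal on a linear axis from 0 for each of the 9 tested probe sets of the glycolytic enzymes, with the 2 arrays of each group as points and the group mean as a line. Hk2 and Ldha are higher with HEL on every array of both receptors, Tpi1 is lower on every array, and Pfkl is higher in IgM and lower in IgMG cells.

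Hexokinases catalyse the entry step. Hk2 is the inducible isozyme of growing cells. Its signals in IgM cells were 30.1 and 55.5 without HEL and 119 and 130.0 with HEL. In IgMG cells they were 44.3 and 68.0 without and 80.9 and 131 with HEL. Stimulated arrays lay above unstimulated ones in both receptors, with the first IgMG array with HEL the lowest of the 4. Mean signal went from 42.8 ± 18.0 to 124 ± 7.85 (SD, n = 2 arrays each) in IgM cells, 2.91-fold, and from 56.1 ± 16.8 to 106 ± 35.2 in IgMG cells, 1.88-fold. The log2 change was 1.29 ± 0.30 (SE) in IgM cells, with a limma adjusted p = 0.025, and 0.74 ± 0.30 in IgMG cells, with an adjusted p = 0.189. The mean response of 1.02 ± 0.21 passed, with a limma adjusted p = 0.0113, but not without the second stimulated IgMG array (0.87, 0.0533). The IgM call was lost without the first unstimulated IgM array (0.97, adjusted p = 0.165, limma), the first (1.35, 0.0677) or the second (1.23, 0.128) stimulated IgM array, and without both arrays that stand apart (1.23, 0.0684). It was also lost with the Gapdh ratio as a covariate (1.35, limma adjusted p = 0.0674) and with no filter on dim probe sets (adjusted p = 0.0562). A second probe set of Hk2 had signals of 0.6 to 4.5 on all 8 arrays and was not tested.

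Hk1 is the isozyme found in most tissues. Its signals in IgM cells were 2216 and 3657 without HEL and 4379 and 3590 with HEL, so the groups overlapped. In IgMG cells they were 3651 and 3925 without and 4044 and 4263 with HEL, and did not overlap. The first unstimulated IgM array was the lowest of the 8, and the other 7 lay between 3590 and 4379. The log2 change was 0.48 ± 0.22 in IgM cells (95% interval -0.02 to 0.97) and 0.13 ± 0.22 in IgMG cells, with limma adjusted p = 0.189 and 0.779. The IgM value rested on the choice of unstimulated array: it was 0.12 without the first (limma adjusted p = 0.772) and 0.84 without the second (0.0369).

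Pfkl is the liver-type subunit of phosphofructokinase, the main control point of the pathway. Its signals in IgM cells were 358 and 291 without HEL and 393 and 390 with HEL. In IgMG cells they were 351 and 435 without and 242 and 266 with HEL. Both stimulated IgM arrays lay above their unstimulated arrays, and both stimulated IgMG arrays lay below theirs. Opposite directions without overlap were seen for 1 of 9 member probe sets and for 5.02% of all tested. The log2 change was 0.27 ± 0.18 in IgM and -0.59 ± 0.18 in IgMG cells, with limma adjusted p = 0.379 and 0.0956, so neither passed. The difference between the responses, -0.86 ± 0.26 (95% interval -1.44 to -0.28), had an unadjusted p = 0.00868 and an adjusted p = 0.414 in limma. The second unstimulated IgMG array, with the high myeloid and NK cell sums, was the highest of the 8 for Pfkl. Without it the IgMG change was -0.45, and without the first unstimulated IgMG array it was -0.74. Leaving out the first or the second stimulated IgMG array gave -0.53 or -0.65.

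Aldolases cut the phosphorylated hexose. Aldoa, the main form outside liver and brain, had 2 probe sets of a class whose probes can match related genes, so their values are uncertain. The first read 1549 and 1453 in unstimulated and 1603 and 1516 in stimulated IgM cells, and 1939 and 1153 in unstimulated and 1499 and 1479 in stimulated IgMG cells. The highest and the lowest of the 8 values were the unstimulated IgMG arrays. The second probe set read 809 and 914, then 905 and 609.0 with HEL in IgM cells, and 909 and 690.3, then 756 and 989 in IgMG cells. Groups overlapped in each case, and the log2 changes lay between -0.21 and 0.12. Aldoc, the brain-type form, was dim. Its signals were 46.5 and 35.3 without HEL and 61.5 and 37.8 with HEL in IgM cells, and 48.2 and 41.1 without and 7.9 and 25.4 with HEL in IgMG cells. The stimulated IgMG arrays were the lowest of the 8. The IgMG log2 change was -0.94 ± 0.34, with a limma adjusted p = 0.142.

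Tpi1, which interconverts the triose phosphates, had signals of 337 and 274 without HEL and 234 and 233 with HEL in IgM cells. In IgMG cells they were 299.9 and 331 without and 233 and 241 with HEL. All 4 stimulated arrays lay below all 4 unstimulated ones. Mean signal was 0.764 of the unstimulated level in IgM cells and 0.751 in IgMG cells. The log2 changes were -0.36 ± 0.17 and -0.39 ± 0.17, and their mean of -0.37 ± 0.12 had a limma adjusted p = 0.0592, which missed the threshold. With the brightest 40% of probe sets tested it passed, with a limma adjusted p = 0.0434.

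Pgk1, the first ATP-forming enzyme of the chain, had signals of 478.5 and 428 without HEL and 467 and 552 with HEL in IgM cells, where the groups overlapped. In IgMG cells they were 426 and 452 without and 514 and 464 with HEL, without overlap. The log2 changes were 0.16 ± 0.16 and 0.15 ± 0.16, with limma adjusted p = 0.568 and 0.659, and their 95% intervals reached from -0.21 to 0.53 and from -0.22 to 0.52.

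Ldha closes the chain by making lactate. Its signals in IgM cells were 960.3 and 949 without HEL and 1658 and 2134 with HEL. In IgMG cells they were 826 and 1025 without and 1244 and 1524 with HEL. All stimulated arrays lay above all unstimulated ones, and both stimulated IgM arrays lay above both stimulated IgMG arrays. Mean signal went from 955 ± 8.06 to 1896 ± 336 (SD, n = 2 arrays each) in IgM cells, 1.99-fold, and from 926 ± 141 to 1384 ± 198 in IgMG cells. The log2 change was 0.97 ± 0.18 in IgM cells, with a limma adjusted p = 0.0102, and 0.57 ± 0.18 in IgMG cells, with an adjusted p = 0.108. The mean response of 0.77 ± 0.13 had a limma adjusted p = 0.00418. The second stimulated IgM array, which stood apart in the Gapdh ratio, was the highest for Ldha; without it the IgM change was 0.79 (limma adjusted p = 0.0797). The IgM call was also lost without the first (0.98, 0.0666) or the second (0.96, 0.0592) unstimulated IgM array, and it was kept without both arrays that stand apart (0.79, 0.0354) and with the Gapdh ratio as a covariate (0.85, 0.0428), all limma adjusted p.

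**Figure D2:**
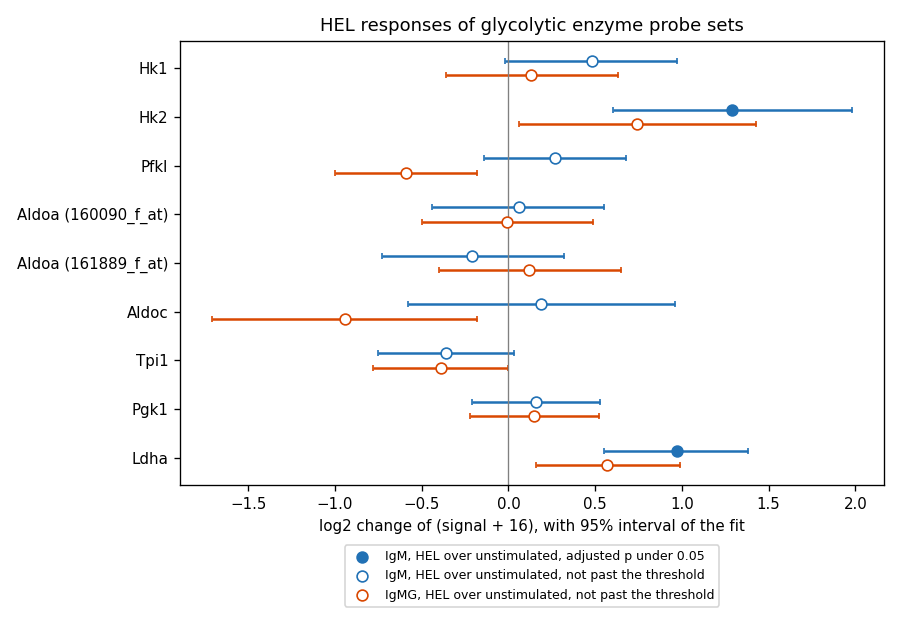
Log2 change with HEL of each tested probe set in IgM and in IgMG cells, with 95% intervals from limma; filled points passed the threshold and open points did not. The IgM intervals of Hk2 (0.60 to 1.98) and Ldha (0.55 to 1.38) lie above 0, and the points of Pfkl fall on opposite sides of 0.

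Counted without a test, 3 of 9 member probe sets had stimulated IgM arrays all above and 1 had them all below the unstimulated ones, against 27.6% and 30.6% of all tested. In IgMG cells 4 were above and 3 below, against 23.7% and 29.4%. Hk2 and Ldha were above in both receptors, and Tpi1 was below in both. How many of all tested probe sets did so in both receptors was not counted. The shares within each receptor are close to the background or rest on few probe sets.

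Whether the IgG1 part of the receptor changed the response was asked by the difference of the HEL responses. No member passed: limma called 0 of 9, against 0.00% of all 7453, and 2 of 9 (Pfkl and Aldoc) had an unadjusted p under 0.05, against 750 of all. The estimate was below 0, a smaller or more negative response in IgMG cells, for 8 of 9 probe sets. With the Gapdh ratio as a covariate the differences of Tpi1 and Pgk1 were above 0, at 0.09 and 0.27, and that of the second Aldoa probe set turned below 0. Their median difference was -0.34, beside -0.02 over all tested. For Ldha the difference was -0.39 ± 0.26 (95% interval -0.98 to 0.19), and without both arrays that stand apart it was -0.06. For Hk2 it was -0.55 ± 0.43 (95% interval -1.52 to 0.43), for Aldoc -1.13 ± 0.48 and for Hk1 -0.34 ± 0.31. Tpi1 and Pgk1 had differences of -0.03 and -0.01, with intervals of -0.58 to 0.52 and -0.53 to 0.51. The intervals of Tpi1 and Pgk1 were thus wider than the responses themselves.

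Before HEL the receptors were compared directly. Of 9 member probe sets 0 were called by limma, against 0.00% of all, and 0 had an unadjusted p under 0.05, against 344 of all; the log2 differences of IgMG from IgM lay between -0.12 and 0.41. Arrays of the receptors separated for 0 of 9, against 16.5% of all higher and 15.1% lower in IgMG cells. With HEL 0 of 9 were called, against 0.0134% of all, and 3 (Pfkl, Aldoc and Ldha) had an unadjusted p under 0.05, against 1037 of all. Pfkl was at 254 ± 16.5 in IgMG and 391 ± 2.69 in IgM cells (SD, n = 2 each), and the log2 difference was -0.60 ± 0.18, with a limma adjusted p = 0.246. Aldoc had a log2 difference of -1.04 ± 0.34 and Ldha of -0.45 ± 0.18, with limma adjusted p = 0.254 and 0.328. Stimulated IgMG arrays lay wholly below stimulated IgM arrays for 4 of 9 member probe sets and wholly above for 0, against 24.5% and 23.8% of all. The NK cell and myeloid sums and the sign of RNA length separated in the same comparison. The NK cell sums were 1045 and 852 in stimulated IgMG and 516 and 389.6 in stimulated IgM cells, and the myeloid sums 8405 and 8507 against 6201 and 2163. Single markers did not all follow the sums. S100a8 overlapped, at 871 and 2019 against 1350 and 215. So did the myeloid genes S100a9, Ngp, Camp, Lyz2, C1qc, Apoe, Ctsd, Itgam and Fcgr3 and the NK cell genes Klrc1 and Ncr1. The myeloid genes Csf1r, Cd14, C1qa, C1qb, Mrc1, Cd68 and Mpeg1 separated. The NK cell genes Klrd1, Klrk1, Gzma, Gzmb, Prf1 and Ccl5 also separated. The Gapdh ratios were 0.221 and 0.140 against 0.328 and 0.755. Their part in the receptor difference was not tested. These comparisons use the same arrays as the HEL responses above.

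The pathway between Tpi1 and Ldha was followed further in genes that are not members. Gapdh, which oxidises the triose phosphate before Pgk1, is carried by control probe sets that were not tested. Its 3′ probe set lay between 2214 and 2526 on all 8 arrays, a range of 1.14-fold. Its 5′ probe set ranged 5.39-fold, from 338 on the second stimulated IgMG array to 1825 on the second stimulated IgM array. In IgMG cells the middle probe set was 946 and 865 with HEL, below 1127 and 1514 without, while the 3′ probe set was 2419 and 2420.0 with and 2214 and 2373 without. The apparent direction of Gapdh thus differed with the end of the transcript that was read. With the Gapdh ratio as a covariate in the limma fit, the IgM changes of the 9 member probe sets lay between -0.41 and 1.35 and the IgMG changes between -1.28 (Aldoc) and 0.71 (Ldha). The covariate turned the sign of the second Aldoa probe set in both receptors (0.12 in IgM, -0.26 in IgMG) and of Hk1 in IgMG cells (-0.07), none of them called.

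**Figure D3:**
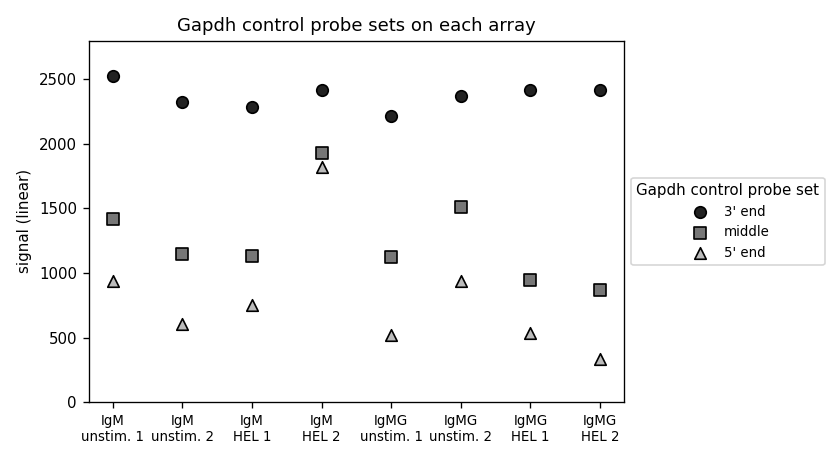
Signals of the 3′, middle and 5′ control probe sets of Gapdh on each of the 8 arrays, on a linear axis from 0. The 3′ signal stays between 2214 and 2526, while the 5′ signal spans 338 to 1825 and is highest on the second stimulated IgM array.

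Pgam1, the mutase that follows Pgk1, was higher with HEL in both receptors. Its signals were 425.5 and 376 without HEL and 693 and 663 with HEL in IgM cells, and 340.5 and 353 without and 755 and 789 with HEL in IgMG cells. No stimulated array overlapped an unstimulated one. The log2 changes were 0.74 ± 0.15 and 1.12 ± 0.15, with limma adjusted p = 0.0132 and 0.0047. The IgM call was lost without either unstimulated IgM array (adjusted p = 0.0504 and 0.0804, limma) or the second stimulated one (0.0594), and the IgMG call without the second stimulated IgMG array (0.0762). Pkm, pyruvate kinase, had log2 changes of 0.12 and -0.43, with limma adjusted p = 0.712 and 0.186. A second, dimmer Pkm probe set had changes of -0.38 and -0.03, with limma adjusted p = 0.303 and 0.954, so the receptor with the lower value differed between the probe sets.

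A list of other pathway genes held 65 symbols, 48 with a probe set and 34 bright enough to be tested, each by its brightest probe set. In IgM cells 3 of 34 rose (Pgam1, P4ha1 and Myc) and 2 fell (Txnip and Pdk1), near the 6.70% and 7.27% of all tested probe sets. In IgMG cells 2 rose (Pgam1 and Myc) and 2 fell (Txnip and Pgls), against 3.10% and 2.29% of all. For the mean response 4 rose and 6 fell, against the 9.18% and 11.0% of all tested probe sets given above, and limma called 0 of 34 for the difference of the responses. The list's median log2 change was 0.01 in IgM and -0.07 in IgMG cells.

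Among regulators of the flux, Txnip and Pdk1 stood out in the IgM response. Txnip, a protein that holds back glucose uptake, read 1003 and 870.4 without HEL and 242 and 206 with HEL in IgM cells. In IgMG cells it read 1056 and 1018 without and 512 and 442.5 with HEL. The stimulated IgM arrays were the lowest. The log2 changes were -1.99 ± 0.16 and -1.10 ± 0.16, with limma adjusted p = 0.000194 and 0.00804; the IgMG call was lost without the second stimulated IgMG array (adjusted p = 0.112). The difference of the responses, 0.89 ± 0.23, had a limma adjusted p = 0.414. A second, dim Txnip probe set had the opposite sign, 0.60 and 0.23, and did not pass.

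Pdk1, a kinase that shuts pyruvate out of the mitochondrial oxidation, read 266 and 313 without HEL and 108 and 119 with HEL in IgM cells. In IgMG cells it read 276 and 297 without and 191 and 147 with HEL. All stimulated arrays lay below all unstimulated ones. The IgM log2 change was -1.23 ± 0.19 with a limma adjusted p = 0.00418, and the IgMG change of -0.72 ± 0.19 had an adjusted p = 0.0635. Of 6 tested genes for the entry of pyruvate into mitochondria, Pdk1 was the only one called in the IgM response.

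Among transporters, Slc2a1, the widespread glucose carrier GLUT1, read 100.1 and 90.4 without HEL and 52.8 and 56.3 with HEL in IgM cells, and 82.8 and 65.7 without and 69.2 and 72.6 with HEL in IgMG cells. Its arrays separated in IgM cells and overlapped in IgMG cells, and the log2 changes of -0.66 ± 0.21 and -0.05 ± 0.21 had limma adjusted p = 0.0658 and 0.926. Slc2a3, the high-affinity carrier GLUT3, rose in the mean response by 0.79, with a limma adjusted p = 0.0387. This call was lost without any of 6 single arrays, the exceptions being the second unstimulated and the first stimulated IgM array, with limma adjusted p from 0.0581 to 0.13. It was also lost with the Gapdh ratio as a covariate (0.80, adjusted p = 0.0511, limma) and without both arrays that stand apart (0.63, 0.121). In the pentose phosphate branch, which draws on glucose 6-phosphate, 0 of 6 tested genes were called in IgM cells and 1 fell in IgMG cells, the lactonase Pgls, by 1.07 on the log2 scale (limma adjusted p = 0.0434). The Pgls call was lost without any single array other than the first unstimulated IgM array, with limma adjusted p from 0.0505 to 0.28. It was also lost with the Gapdh ratio as a covariate (-0.81, adjusted p = 0.163, limma) and without both arrays that stand apart (-1.12, 0.0615). Taldo1, transaldolase, fell in the mean response, and not without the first (adjusted p = 0.0578, limma) or the second (0.059) stimulated IgMG array.

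Of 10 tested transcription factors and hypoxia genes, Myc rose in both receptors, by 3.69 ± 0.22 in IgM and 3.54 ± 0.22 in IgMG cells on the log2 scale, with limma adjusted p = 5.01e-05 and 0.000107. P4ha1, a collagen prolyl hydroxylase induced by low oxygen, rose in IgM cells by 0.92 ± 0.25, with a limma adjusted p = 0.042. This call was lost without any 1 of the 4 IgM arrays or either stimulated IgMG array, with limma adjusted p from 0.0654 to 0.231, and with the Gapdh ratio as a covariate (1.05, 0.0648). Hif1a, the regulated subunit of HIF-1, had log2 changes of -0.45 and 0.12, with an adjusted p = 0.0845 in IgM cells from limma, and its probe set is of the class that can match related genes. Egln1, an oxygen sensor that marks HIF for destruction, fell in the mean response, a call lost without any single array other than the first stimulated IgM array, with limma adjusted p from 0.057 to 0.133, and without both arrays that stand apart (0.123).

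**Figure D4:**
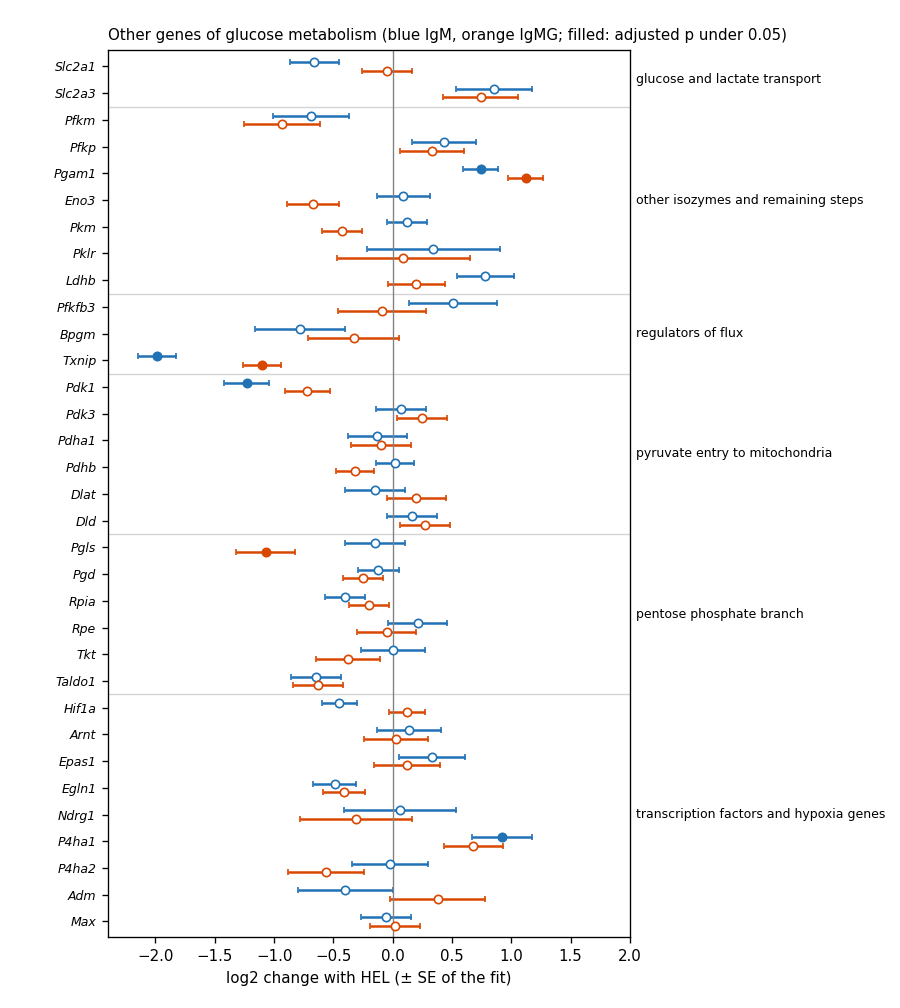
Log2 change with HEL in IgM and IgMG cells of the tested pathway genes outside the members, grouped by role, with bars for the SE of the fit and filled points past the threshold; Myc is left out because its changes of 3.69 and 3.54 lie far beyond the others. Pgam1 lies to the right of 0 and Txnip and Pdk1 to the left of 0 in both receptors, with an open IgMG point for Pdk1. In IgM cells P4ha1 (0.92), Slc2a3 (0.85) and Ldhb (0.78) lie further right than Pgam1 (0.74). In IgMG cells Pgls (-1.07) and Pfkm (-0.93) lie further left than Pdk1 (-0.72).

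Levels of the members were also averaged after standardising the log2 signal of each gene over the 8 arrays. The average was -0.25 and -0.41 on the unstimulated and 0.50 and 0.56 on the stimulated IgM arrays, in SD units. On the IgMG arrays it was -0.00 and 0.01 without and -0.38 and -0.03 with HEL. The average gives equal weight to genes that ran against each other. In IgMG cells Hk1, Hk2, Pgk1 and Ldha were above and Pfkl, Aldoc and Tpi1 below their unstimulated arrays. Over the 8 arrays Tpi1 had a Pearson r of -0.78 with Ldha and -0.83 with Hk2. Between Ldha and Hk2 it was 0.89. For Pgk1 it was 0.74 with Ldha and 0.47 with Hk2, and for Hk1 0.38 and 0.74. Values of Pfkl, Aldoa and Aldoc with either gene lay between -0.18 and 0.07. The 5 tested genes most like this average over the 8 arrays were Noc4l, Tox4, Gm5364, Pou2f3 and Dpysl2, with Pearson r of 0.94 to 0.96. This is a description over arrays that fall into 4 groups. Noc4l, a ribosome biogenesis factor, read 170.2 and 161 without HEL and 335 and 355 with HEL in IgM cells, and 196 and 217.5 without and 193 and 238 with HEL in IgMG cells.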

How the data were processed

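RNA of 8 arrays, 2 in each of 4 groups taken from the titles, was analysed. The authors deposited 1 linear intensity per probe set and array, computed with MAS5 per the submitters' processing notes. The MAS5 version and target are not given here by any source used. MAS5 scaling assumes that arrays have about the same total signal, and dim values are noisy. The 66 control probe sets were left out, and the brightest 60% by mean log2(signal + 16), 7453 of 12422, were tested. The offset understates changes of dim genes. The 8 arrays were fitted together, 1 mean per group, with limma 3.58.1 (R 4.3.3). Two-sided p-values came from eBayes (trended prior) and were adjusted after Benjamini-Hochberg, with calls at 0.05. Residual degrees of freedom were 4, with 4.87 from the prior. With 2 arrays against 2, exact permutation gives no p below 0.333. The platform's gene annotation gave 10833 probe sets a single symbol, 396 more than 1 symbol and 1193 no symbol. Gapdh has a further probe set with several symbols, which was not named.

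Members, lists and markers were chosen with earlier results of these data known. Genes were named by a written rule: all members, pathway genes that passed in a HEL response or were always named (Gapdh, Pgam1, Pkm, Slc2a1, Pdk1, Hif1a, Myc), and the 5 probe sets most like the members' average. Scripts were tested on simulated data. Alternatives covered the offset, scaling, filter, trend, arrays in the fit, replicate block, the Gapdh ratio, both arrays that stand apart, and each array left out. Promoters came from RefSeq. Figures used matplotlib 3.10.9 in Python 3.11.15.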

Additional observations from a re-analysis of the deposited data

Results flagged for a closer look

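Pfkl was singled out because its HEL responses ran in opposite directions: both stimulated IgM arrays lay above, and both stimulated IgMG arrays below, their unstimulated arrays. The difference of the responses, IgMG minus IgM, was -0.86 ± 0.26 on the log2 scale, with an adjusted p = 0.414 in limma, so it did not pass the test. Opposite directions without overlap were found for 374 of 7453 tested probe sets, or 5.02%.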

How the results depend on the processing

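With 2 arrays a group, calls near the threshold depended on single arrays. Of the member probe sets, 2 were called in the IgM response; 1 was called with no filter, with the brightest 40% (which leaves out Hk2), with a covariate for the Gapdh 5'/3' ratio and without both arrays that stand apart, and 0 to 2 with an array left out. The mean response called 2, and 1 to 3 with an array left out. The IgMG response, the difference of the responses and both receptor comparisons called 0 under all alternatives run. Of 1005 member values under alternatives, 926 kept direction and call, 66 changed sign while not called, 10 lost a call, 3 gained one, and 0 reversed a call. Most of the 1005 belong to results not called in the main fit, which had no call to lose. Calls were lost in 6 of 18 alternatives for Hk2 and 3 of 19 for Ldha in the IgM response, and in 1 of 17 for Hk2 in the mean response. Ldha stayed called in the mean response under all alternatives run, with log2 changes of 0.68 to 0.86. Over all tested probe sets, the IgM count of 1041 was 603 with the covariate, 341 and 501 without the first or second unstimulated IgM array and 358 without the second stimulated one. The IgMG count of 402 was 256 with no filter, 231 with no trend, 163 with the covariate or with only the 4 IgMG arrays, 266 without the second unstimulated IgM array, and 93 and 58 without the first or second stimulated IgMG array. The mean response went from 1505 to 842 to 936 without the first unstimulated IgM array or either stimulated IgMG array. The difference of the responses went from 0 to at most 13, IgMG against IgM without HEL from 0 to at most 32, both without the first unstimulated IgMG array, and with HEL from 1 to between 0 and 6. The IgMG count of 402 was split 231 higher and 171 lower, and 233 and 97 with arrays centred on their medians. Among other pathway genes, the Pgls call in IgMG cells was lost with centred arrays (adjusted p = 0.0521, limma), no filter (0.0694), no trend (0.0748) and the 4 arrays alone (0.0815), that of P4ha1 in IgM cells with centred arrays (0.0512), no filter (0.0961) and the 4 arrays alone (0.0756), and in the mean response those of Slc2a3 with no filter (0.0748) and no trend (0.0532), Pfkm with no filter (0.0757) and Egln1 with no filter (0.0566) and quantile normalization (0.0605). A replicate block called 2, 0 and 2 members in the IgM, IgMG and mean responses and 0 in the other comparisons, and with it P4ha1 (0.0652), Pgls (0.0511), Pfkm (0.0533) and Egln1 (0.055) lost their calls. The numbers did not pair the arrays: same-numbered deviations correlated at -0.161 to 0.0163. A crossed pairing of the unstimulated arrays, chosen after seeing the data, called 0 members.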

Other observations

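Bpgm, which makes 2,3-bisphosphoglycerate from a glycolytic intermediate and is known from red cells, read 2029 and 1659 without HEL and 1684 and 669 with HEL in IgM cells, and 1440 and 2234 without and 1583 and 1284 with HEL in IgMG cells. It was lowest on the second stimulated IgM array, where the myeloid sum was also the lowest, at 2163. Of 8 erythroid markers, 5 were lowest on that array, among them Alas2 (1198, against 1958 to 3497 on the others) and Slc4a1 (230.5, against 487 to 1365), while the sum of 14556 was mostly Hba-a1 (12305). The part of erythroid RNA in the Bpgm signal was not tested. Ldhb, the other lactate dehydrogenase subunit, read 28.6 and 30.6 without HEL and 64 and 61.1 with HEL in IgM cells, a log2 change of 0.78 with a limma adjusted p = 0.0622, and 51.1 and 35.0 without and 51.8 and 50.5 with HEL in IgMG cells. Pfkm, the muscle-type phosphofructokinase subunit, was dim and fell in the mean response, a call lost without any single array other than the second stimulated IgM and the first stimulated IgMG array (limma adjusted p from 0.0584 to 0.103). It read 55.8 and 65.7 without HEL and 24.4 and 39.8 with HEL in IgM cells, and 73.4 and 77.2 without and 47.4 and 20.0 with HEL in IgMG cells.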
